A study of Bos taurus with 30 samples.

Results

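The 7 subunits of respiratory complex I that are encoded in the mitochondrial genome were followed across bovine endometrial cells cultured on a microfluidic chip. The genes were taken by name from the count tables as ND1, ND2, ND3, ND4, ND4L, ND5 and ND6, with or without the prefix MT-, and all 7 were found among the 27607 counted genes. In the files these were ND1 (ENSBTAG00000043558), MT-ND2 (ENSBTAG00000043571), MT-ND3 (ENSBTAG00000043568), MT-ND4L (ENSBTAG00000043559), MT-ND4 (ENSBTAG00000043577), ND5 (ENSBTAG00000043563) and MT-ND6 (ENSBTAG00000043546). All 7 passed the filter on low counts in each of the 17 comparisons.

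Primary endometrial cells came from nonpregnant cows at the early luteal stage. Epithelial cells lined the upper channel and stromal cells the lower channel of the device, with a porous membrane between them, and medium flowed for 72 h. In the glucose experiment the medium held 5 or 50 mM of glucose, and in the insulin experiment it held 5 mM of glucose and either the vehicle (acetic acid in PBS) or insulin at 1 or at 10 ng/mL. Cells of each type were sequenced apart, with 3 biological replicates in each of the 10 groups, which gave 12 glucose and 18 insulin libraries. A device with both cell layers lacks the vessels and immune cells of the tissue, and the age of the cows was not given in the sources used here.

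Complex I (NADH:ubiquinone oxidoreductase) takes electrons from NADH and pumps protons across the inner mitochondrial membrane. The mitochondrially encoded subunits form the core of its membrane arm, where the protons are moved, and the remaining subunits are encoded in the nucleus and imported. The mitochondrial genes are transcribed as long precursors from both strands and then cut into mRNAs, rRNAs and tRNAs, so that levels of single mRNAs also depend on their stability. MT-ND6 is the only mRNA gene on the light strand, and MT-ND4L and MT-ND4 share a single mRNA in which the reading frames overlap.

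The libraries held 8826470 to 16647701 counted reads. The 7 genes held 0.203% to 0.506% of the reads of a library, apart from 1 library described below. The lowest count of a member in these 29 libraries was 312, for MT-ND6, so that each level was far above the 3 counts that a count of 0 allows (at most 0.343 CPM, which are read counts scaled to a common normalized library size), for counting error only. The 29 epithelial markers summed to 9472 to 19933 CPM in epithelial libraries and the 30 stromal markers to 25639 to 105892 CPM in stromal libraries, and the immune markers found (3 of 5) stayed at or below 17.6 CPM in all libraries. The endothelial markers found (4 of 5) had a sum of 15.6 to 79.2 CPM in the epithelial libraries, and in the stromal ones their sum was 2.83 to 18.8 CPM. Markers of the other cell type were counted on both sides, with 1438 to 8214 CPM of stromal markers in epithelial libraries. Whether these reads came from cells of the other type was not tested. In stromal libraries the epithelial markers summed to 31.7 to 930 CPM, except in the 50 mM glucose group with 1256 to 6735 CPM. In bulk RNA, fewer cells of a type and less RNA per cell cannot be told apart.

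Among the glucose libraries, 2 stood apart. The epithelial library of replicate 2 at 5 mM held 1.65% of its reads on mitochondrial genes of any kind, and the other 11 glucose libraries held 10.6% to 20.2%. The stromal library of replicate 3 at 50 mM held 6735 CPM of epithelial markers and 25639 CPM of stromal markers, where the other stromal libraries of this experiment had 111 to 2155 and 74941 to 105537 CPM. Fold changes of the glucose experiment are given below with and without the pairs these libraries belong to. The exceptions are ND1 and MT-ND2 between 50 and 5 mM in stromal cells, for which only ranges are given, at the end. The group means and their order include these libraries.

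The summed level of the 7 genes in the glucose experiment (mean ± SD, n = 3) was 1825 ± 836 CPM at 5 mM and 3107 ± 810 CPM at 50 mM for epithelial cells. The epithelial 5 mM libraries had 2404, 866 and 2204 CPM, the lowest of them in the library with few mitochondrial reads. For stromal cells the mean was 3346 ± 1390 CPM and 2879 ± 833 CPM. In the insulin experiment it was 3828 ± 612, 3949 ± 546 and 4238 ± 608 CPM (SD, n = 3) in epithelial cells with the vehicle, 1 and 10 ng/mL, respectively. The stromal cells had 3092 ± 835, 3902 ± 236 and 3333 ± 421 CPM (SD, n = 3) at the same doses. Levels of the experiments were scaled separately and are not compared between them, and levels of different genes are not ranked because the counts were not divided by gene length.

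**Figure D1:**
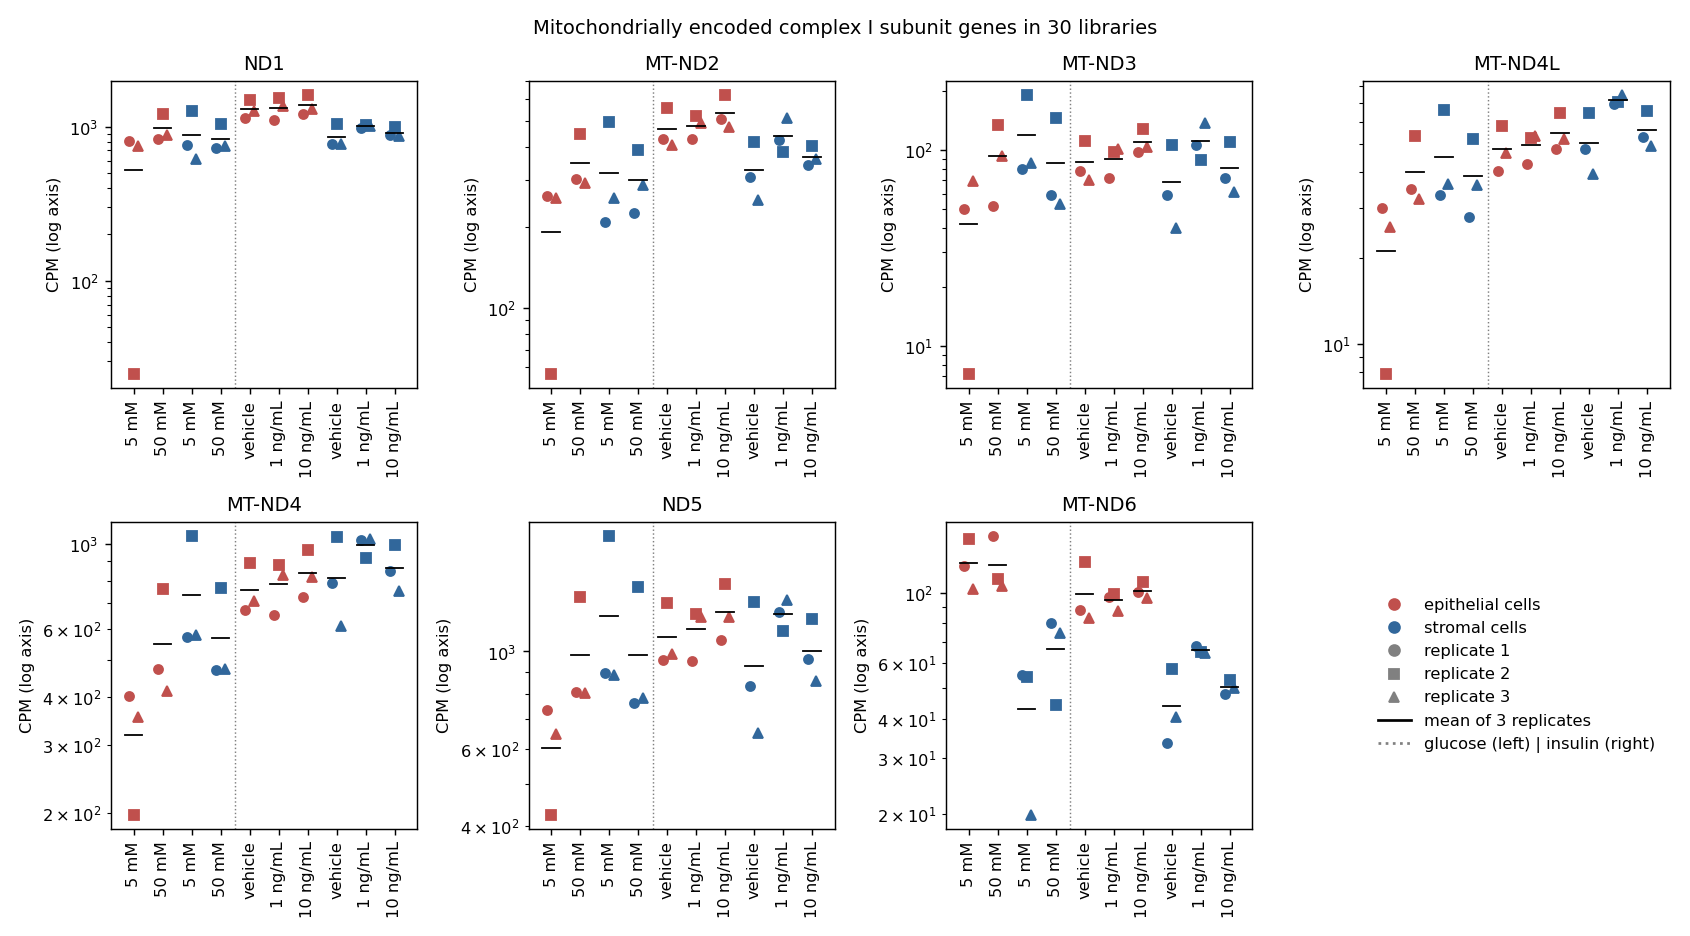
Level of each gene in CPM (log axis) in the 30 libraries, by group, with symbols for the replicate numbers and lines for the means of 3 replicates. In 6 panels the epithelial library of replicate 2 at 5 mM glucose is the lowest point, and in the MT-ND6 panel the epithelial libraries lie above the stromal libraries of the same treatment.

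The difference that was found in every setting of the chip was the higher level of MT-ND6 in epithelial than in stromal cells. At 5 mM glucose MT-ND6 had 121, 148 and 103 CPM in the epithelial libraries of replicates 1, 2 and 3, and 55.1, 54.2 and 19.9 CPM in the stromal libraries. At 50 mM it had 151, 110 and 105 CPM against 80.2, 44.2 and 74.5 CPM. The epithelial libraries were above all stromal libraries at either concentration.

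The same order was seen in the insulin experiment. With the vehicle, MT-ND6 had 88.5, 125 and 83.2 CPM in epithelial and 33.6, 57.4 and 40.6 CPM in stromal libraries. At 1 ng/mL of insulin it had 97.0, 98.9 and 87.4 CPM against 67.7, 64.9 and 64.7 CPM, and at 10 ng/mL it had 100.3, 108 and 95.8 CPM against 47.9, 53.0 and 50.1 CPM. MT-ND6 was higher in the epithelial library in 15 of 15 pairs, and its groups did not overlap in 5 of 5 comparisons, where the groups of 42.4% (5 mM), 35.1% (50 mM), 67% (vehicle), 67.7% (1 ng/mL) and 67.4% (10 ng/mL) of all genes tested did not overlap. Of all genes, 28.4%, 31.3%, 38.3%, 38.8% and 37.9% were higher in the epithelial library of 3 of 3 pairs, in the same order.

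MT-ND6 was called higher in epithelial cells in all 5 comparisons by the quasi-likelihood test of edgeR, with p-values adjusted over all genes after Benjamini and Hochberg. A gene was called at an adjusted p under 0.05 and a log2 fold change beyond 0.1. The log2 fold change was 1.65 (SE 0.374, adjusted p = 0.0274 in edgeR) at 5 mM and 0.91 (SE 0.205, adjusted p = 0.0401) at 50 mM glucose. It was 1.20 (SE 0.117, adjusted p = 0.00203 in edgeR) with the vehicle, 0.54 (SE 0.0961, adjusted p = 0.00543) at 1 ng/mL and 1.02 (SE 0.0941, adjusted p = 0.00208) at 10 ng/mL of insulin. The call in all 5 comparisons was not particular to MT-ND6. NDUFV3, 1 of 30 nuclear accessory subunits of complex I, was called higher in the same 5 comparisons (0.73 to 1.22). Accessory subunits called lower were 0 at either glucose concentration and 6, 10 and 8 with the vehicle, 1 and 10 ng/mL. The endothelial marker VWF was called higher in epithelial cells in the same 5 comparisons (1.16 to 3.68). Other endothelial markers went the other way, with lowest values of -2.43 at 5 mM, -1.82 at 50 mM and -2.06 at 1 ng/mL. TEK was called lower at 10 ng/mL (-1.87), and with the vehicle only VWF was tested. The part of these markers was not tested. The shares of all genes called higher in epithelial cells were 10.5%, 6.39%, 27.8%, 29.6% and 27.1% in the same order.

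The fold change of MT-ND6 between the cell types stayed above 0 in 40 of 40 alternative fits, from 0.49 to 1.91, and the call was kept in 36 of them. The call was lost at 5 mM glucose without replicate 3 (1.30, adjusted p = 0.263 in edgeR), and at 50 mM without replicate 1 (0.93, adjusted p = 0.252), without replicate 2 (0.71, adjusted p = 0.116) and without the replicate block (0.88, adjusted p = 0.104). Without the low mitochondrial library at 5 mM, which was in the pair of replicate 2, it was 1.77 (adjusted p = 0.0425 in edgeR). Without the pair that held the stromal library rich in epithelial markers at 50 mM it was 1.12 (adjusted p = 0.0161 in edgeR).

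The same difference stood within the libraries, where the total depth plays no part. MT-ND6 reads were 2.17% to 2.99% of the reads on the other 6 genes in the 9 epithelial insulin libraries and 1.19% to 1.80% in the 9 stromal ones. In the glucose experiment this share was 2.80% to 6.04% in 5 epithelial libraries and 20.6% in the low mitochondrial library. It was 0.81% to 3.53% in the 6 stromal libraries, and the epithelial and stromal libraries thus overlapped there when the pairs were ignored. The counting setting for strand is not given in the sources used here, and reads of MT-ND6 and of the opposite strand at this gene cannot be told apart without it.

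**Figure D2:**
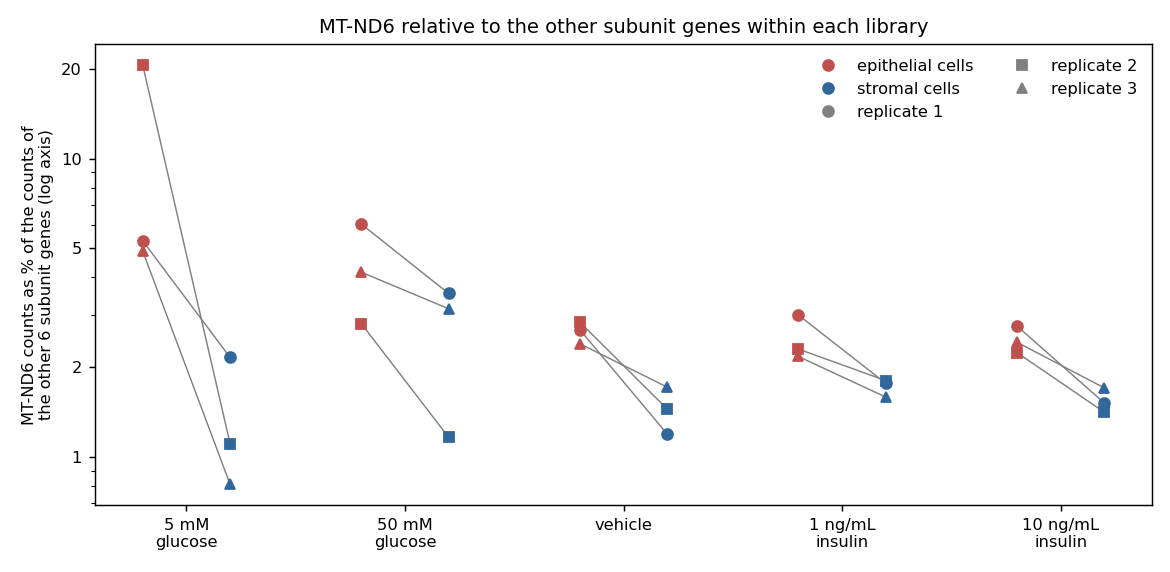
Reads on MT-ND6 as a percent of the reads on the other 6 subunit genes (log axis) in each library, with lines that join the epithelial and the stromal library of one replicate number. All lines fall from the epithelial to the stromal library, from 20.6% in the library with few mitochondrial reads at 5 mM glucose and from 2.17% to 6.04% in the others.

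The genes ND1 and MT-ND2, whose products lie in the membrane arm near and beyond the quinone site, were also higher in epithelial cells in the insulin experiment. ND1 had 1136, 1496 and 1253 CPM in epithelial and 773, 1042 and 770 CPM in stromal libraries with the vehicle, without overlap. The log2 fold change of ND1 was 0.61 (SE 0.126, adjusted p = 0.0146 in edgeR) with the vehicle and 0.59 (SE 0.127, adjusted p = 0.0168) at 10 ng/mL. At 1 ng/mL it was 0.40 (SE 0.142, adjusted p = 0.0553) and not called, although the groups of 1098 to 1532 and 986 to 1026 CPM did not overlap.

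MT-ND2 had 429, 556 and 406 CPM in epithelial and 308, 416 and 253 CPM in stromal libraries with the vehicle. The highest stromal library was thus within the epithelial range, and the epithelial library was the higher one in 3 of 3 pairs. The log2 fold change of MT-ND2 was 0.54 (SE 0.120, adjusted p = 0.0177 in edgeR) with the vehicle and 0.54 (SE 0.119, adjusted p = 0.0174) at 10 ng/mL, and it was 0.15 (SE 0.146, adjusted p = 0.423) at 1 ng/mL. MT-ND3 was called at 10 ng/mL with 0.48 (SE 0.139, adjusted p = 0.0392 in edgeR).

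In total, the cell types differed in 3 of the 7 genes with the vehicle, 2 at 1 ng/mL and 4 at 10 ng/mL, where 55.2%, 58.9% and 54.4% of all genes were called in either direction. When 1 replicate was left out, the call of MT-ND6 was kept in each of these fits. With the vehicle it was then the only one without replicate 1 or replicate 3, and 4 genes were called without replicate 2. At 10 ng/mL it was the only call in all 3 such fits. MT-ND4L went the other way at 1 ng/mL, with 42.6, 52.5 and 53.6 CPM in epithelial and 69.5, 70.5 and 74.4 CPM in stromal libraries. This was a log2 fold change of -0.52 (SE 0.105, adjusted p = 0.00852 in edgeR), without overlap of the groups, and 29.3% of all genes were called lower in epithelial cells there. The call of MT-ND4L at 1 ng/mL was kept in 8 of 8 alternative fits. The 6 mitochondrially encoded mRNAs outside complex I had a median of -0.35 in this comparison, with 0 of 6 above 0. Of these, MT-ATP8 was called lower in epithelial cells as well (-0.60, adjusted p = 0.0420 in edgeR).

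MT-ND4 and ND5 were called between the cell types in 0 of 5 comparisons. With the vehicle, MT-ND4 had 673, 893 and 712 CPM in epithelial and 791, 1040 and 611 CPM in stromal libraries, a log2 fold change of -0.06 (SE 0.151, adjusted p = 0.734 in edgeR). ND5 had 955, 1290 and 985 CPM against 836, 1295 and 652 CPM, a log2 fold change of 0.27 (SE 0.167, adjusted p = 0.223 in edgeR). MT-ND4L is encoded on the same mRNA as MT-ND4, and at 1 ng/mL MT-ND4 had a log2 fold change of -0.32 (SE 0.155, adjusted p = 0.124). Reads in the overlap of these genes cannot be assigned to one of them with certainty.

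In the glucose experiment, MT-ND6 was the only one of the 7 genes called between the cell types (1 of 7 at each concentration, where 21.1% and 17.3% of all genes were called). The other 6 genes had log2 fold changes from -1.68 to -0.82 at 5 mM. Without replicate 2 these were -0.59 to 0.20, with ND1 at 0.20 and MT-ND2 at 0.19 on the other side of 0. The 2 fits that left out replicate 1 or replicate 3 instead called MT-ND3 lower in epithelial cells (-2.49 and -2.68), and that without replicate 1 also called ND1 (-2.68) and MT-ND4L (-1.77) lower. At 50 mM the 6 genes lay between -0.06 and 0.23, and between -0.15 and 0.31 without replicate 3.

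The order of the groups by mean level separated the cell types for MT-ND6 and, in the insulin experiment, for ND1 and MT-ND2. For MT-ND6 in the insulin experiment the order was epithelial 10 ng/mL (101 ± 6.02 CPM, SD, n = 3), epithelial vehicle (98.8 ± 22.6), epithelial 1 ng/mL (94.4 ± 6.16), stromal 1 ng/mL (65.8 ± 1.67), stromal 10 ng/mL (50.3 ± 2.56) and stromal vehicle (43.9 ± 12.2). The intervals of mean ± SD overlapped among the 3 epithelial groups and between the stromal groups with 10 ng/mL and the vehicle, and the other neighbours were apart. ND1 had all epithelial groups above the stromal ones as well, with epithelial vehicle (1295 ± 184) apart from stromal 1 ng/mL (1006 ± 20.4) and the latter apart from stromal 10 ng/mL (913 ± 71.8). For MT-ND4L the stromal group at 1 ng/mL (71.5 ± 2.61) was apart from the next one, stromal 10 ng/mL (56.1 ± 8.43), and all others overlapped. For MT-ND2, MT-ND3, MT-ND4 and ND5, the intervals of all neighbours in this order overlapped. In the glucose experiment, only the neighbours epithelial 50 mM (122 ± 25.3 CPM) and stromal 50 mM (66.3 ± 19.3 CPM) were apart for MT-ND6, and no neighbours were apart for the other 6 genes. This order was not recomputed without the libraries that stood apart.

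The epithelial library of replicate 2 at 5 mM glucose had low levels of 6 of the 7 genes, to very different degrees. ND1 had 24.8 CPM there and 803 and 749 CPM in replicates 1 and 3, which is 31.3-fold lower than their mean. MT-ND3 was 8.32-fold lower (7.17 against 50.0 and 69.3 CPM), MT-ND2 4.57-fold lower (56.7 against 261 and 257 CPM) and MT-ND4L 3.53-fold lower (7.86 against 29.9 and 25.7 CPM). MT-ND4 with 197 CPM and ND5 with 424 CPM were 1.92-fold and 1.63-fold lower, and both were below all 5 other epithelial libraries of the experiment.

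MT-ND6 was not lower in this library. It had 148 CPM, between the 103 and 151 CPM of the other epithelial glucose libraries. Among the other mitochondrial mRNAs, those of COX1 and MT-ATP6 were 28.6-fold and 29.4-fold lower, and that of MT-ATP8, a small subunit of the ATP synthase, was higher with 30.3 CPM against 18.2 and 19.9 CPM. The library had 16490 genes with a count, 7.50% of its reads on long noncoding RNAs (1.30% to 2.13% in the other 11) and 19933 CPM of epithelial markers (9472 to 11428 CPM in the other 5 epithelial libraries). Their part in the mitochondrial levels was not tested.

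**Figure D3:**
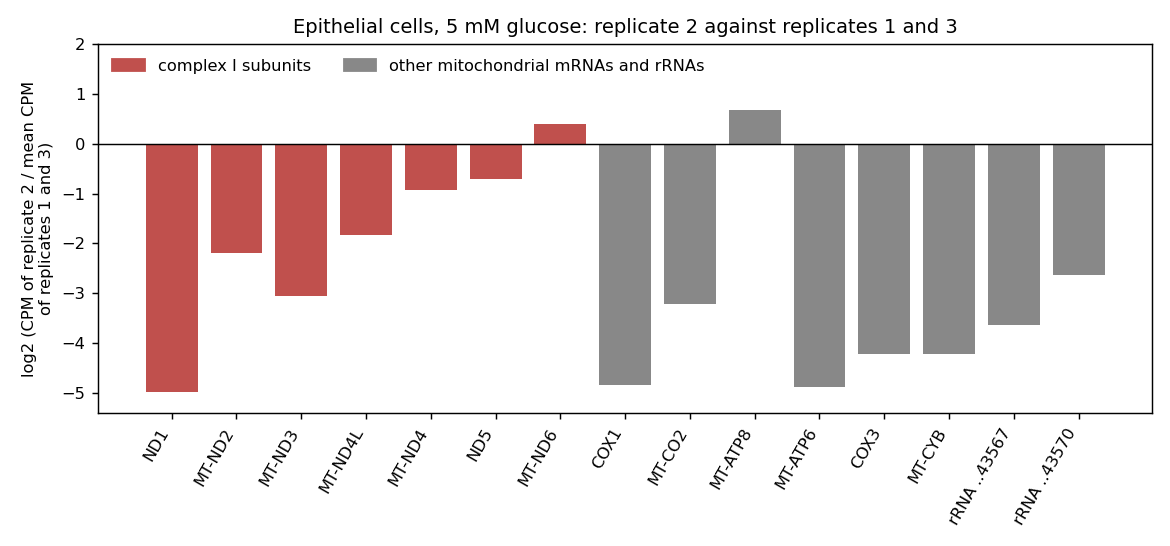
Log2 ratio of the CPM in the epithelial library of replicate 2 at 5 mM glucose to the mean CPM of replicates 1 and 3, for the 13 mitochondrially encoded mRNAs and both rRNAs. The ratio runs from -4.97 for ND1 to 0.40 for MT-ND6 among the complex I genes, and MT-ATP8 is the other gene above 0 (0.67).

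The question in the glucose experiment was whether 50 mM altered the cells compared with 5 mM. In epithelial cells, 0 of the 7 genes were called (edgeR, 0 at an unadjusted p under 0.05, 0 with DESeq2), where 0% of all 13713 genes were called and 1.55% had an unadjusted p under 0.05. The log2 fold changes of 6 genes lay between 0.69 and 1.52 with standard errors of 0.362 to 1.24, and that of MT-ND6 was -0.02 (SE 0.236, adjusted p = 0.971 in edgeR). The 6 genes were higher at 50 mM in 3 of 3 pairs, as were 14.9% of all genes, and the groups of 5 genes did not overlap, as was so for 5.25% of all genes. The size of the fold change came from the pair of replicate 2, with log2 ratios of ND1 of 0.06, 5.60 and 0.24 in the pairs of replicates 1, 2 and 3. Stromal markers were higher as well, with 26 of 26 tested above 0, a median of 0.68, 4 at an unadjusted p under 0.05 and 0 called. They summed to 5981, 3719 and 2191 CPM at 5 mM and to 8214, 7147 and 3134 CPM at 50 mM in replicates 1, 2 and 3, and their part in the result was not tested.

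Without replicate 2, the log2 fold changes in epithelial cells were 0.14 for ND1, 0.20 for MT-ND2, 0.24 for MT-ND3, 0.27 for MT-ND4L, 0.22 for MT-ND4, 0.22 for ND5 and 0.17 for MT-ND6. The adjusted p-values were then between 0.258 and 0.548 (edgeR). The values of MT-ND4 in replicates 1 and 3, with 403 and 354 CPM at 5 mM and 472 and 414 CPM at 50 mM, show the size of these differences. The fit without replicate 2 called 221 of all genes, and 0 of the 7 genes were among them.

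In stromal cells, 0 of the 7 genes were called between 50 and 5 mM (edgeR, 2 at an unadjusted p under 0.05, 0 with DESeq2), where 0% of all 13644 genes were called and 4.87% had an unadjusted p under 0.05. MT-ND3, a small subunit at the joint of both arms of the complex, had 79.8, 191 and 85.5 CPM at 5 mM and 58.8, 146 and 53.2 CPM at 50 mM. The groups overlapped, since replicate 2 was high in both, and MT-ND3 was lower at 50 mM in 3 of 3 pairs, as were 15.2% of all genes. The log2 fold change of MT-ND3 was -0.51 (SE 0.105, adjusted p = 0.696 in edgeR, unadjusted p = 0.00702).

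MT-ND4L, MT-ND4 and ND5 were also lower at 50 mM in 3 of 3 stromal pairs, with log2 fold changes of -0.21, -0.35 and -0.27. MT-ND6 had 0.70 (SE 0.482, adjusted p = 0.698 in edgeR), with single pairs at 0.54, -0.30 and 1.90. Without replicate 3, whose 50 mM library was rich in epithelial markers, MT-ND6 had 0.10 and MT-ND3 had -0.44, while MT-ND4L, MT-ND4 and ND5 had -0.32, -0.40 and -0.33. The epithelial markers summed to 111 to 930 CPM in the stromal 5 mM libraries and to 1256 to 6735 CPM at 50 mM, and their part in the MT-ND6 values was not tested. The test of whether the cell types differed in their change with glucose called 0 of the 7 genes (edgeR interaction term, 0 at an unadjusted p under 0.05, 0 with DESeq2), where 0% of all genes were called and 7.53% had an unadjusted p under 0.05. The differences were 0.96 to 1.88 for 6 genes and -0.73 for MT-ND6, 0.013 to 0.77 and -1.08 without replicate 2, and 1.20 to 2.98 and -0.18 without replicate 3. Of 29 epithelial markers, 26 had an unadjusted p under 0.05 in this test and 0 were called, with a median of -4.68, and their part was not tested.

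The insulin experiment asked how the cells respond to 1 and 10 ng/mL of insulin compared with the vehicle. The comparisons of a cell type share libraries, so that the values of 1 ng/mL against vehicle, 10 ng/mL against vehicle and 10 against 1 ng/mL are not independent of each other. In epithelial cells, MT-ND3, MT-ND2 and ND5 rose at 10 ng/mL compared with the vehicle, which was 3 of the 7 genes where 0.124% of all 12853 genes were called. The values of the 7 genes were all above 0, and 6 of the 7 were higher in 3 of 3 pairs, as were 12.4% of all genes. An unadjusted p under 0.05 was found for 6 of the 7 and for 6.96% of all genes.

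MT-ND3 had 77.9, 111 and 70.4 CPM with the vehicle and 97.5, 128 and 104 CPM at 10 ng/mL. Replicate 2 was the highest at both doses and the groups overlapped, while each pair differed in the same direction. The log2 fold change of MT-ND3 was 0.36 (SE 0.0544, adjusted p = 4.9e-04 in edgeR), which is a 1.28-fold level.

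MT-ND2 had 429, 556 and 406 CPM with the vehicle and 506, 623 and 472 CPM at 10 ng/mL, so that its log2 fold change was 0.21 (SE 0.0383, adjusted p = 0.00592 in edgeR). ND5, a proton-pumping subunit at the far end of the membrane arm, had 955, 1290 and 985 CPM and 1062, 1428 and 1199 CPM, a log2 fold change of 0.20 (SE 0.0385, adjusted p = 0.0126 in edgeR). The groups overlapped for both genes, and each was higher at 10 ng/mL in 3 of 3 pairs.

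The remaining genes were not called in this comparison. ND1 had a log2 fold change of 0.09 (SE 0.0370, adjusted p = 0.680 in edgeR), MT-ND4L of 0.19 (SE 0.0597, adjusted p = 0.361) and MT-ND4 of 0.15 (SE 0.0378, adjusted p = 0.177). MT-ND6 had 0.06 (SE 0.0584, adjusted p = 0.916), with single pairs at 0.18, -0.21 and 0.20. The 3 calls were lost (0 of 7 genes) with DESeq2, without the replicate block, without replicate 3 and in a fit of all 9 epithelial insulin libraries, while the fold changes of MT-ND3, MT-ND2 and ND5 stayed within 0.26 to 0.45, 0.20 to 0.24 and 0.15 to 0.23. Of 26 stromal markers tested in the same comparison, 6 were above 0, 9 had an unadjusted p under 0.05 and 0 were called, with a median log2 fold change of -0.10 and a lowest value of -0.83. Their part in the result was not tested.

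At 1 ng/mL the epithelial cells had values close to the vehicle. The log2 fold changes of the 7 genes lay between -0.05 and 0.07 with standard errors of 0.0440 to 0.0861, and 0 were called (edgeR, 0 at an unadjusted p under 0.05 beside 2.95% of all genes, 0 with DESeq2, 0% of all genes called). Between 10 and 1 ng/mL they lay between 0.06 for ND1 and 0.29 for MT-ND3, and 0 were called (edgeR, 6 at an unadjusted p under 0.05 beside 4.44% of all genes, 0 with DESeq2, 0% of all genes called). MT-ND3 had 71.8, 97.6 and 101 CPM at 1 ng/mL, and MT-ND3 and MT-ND6 were higher at 10 ng/mL in 3 of 3 pairs, as were 10.5% of all genes. Without replicate 3, MT-ND2, MT-ND3 and ND5 were called in this comparison.

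In stromal cells the order of the doses was another one, with the highest means of all 7 genes at 1 ng/mL. The log2 fold changes between 1 ng/mL and the vehicle lay between 0.23 for ND1 and 0.74 for MT-ND3, with a median of 0.44, and the median over all genes was -0.004. None of the 7 was called (edgeR, 7 at an unadjusted p under 0.05 beside 5.16% of all genes, 0 with DESeq2), where 0.0157% of all genes were called. MT-ND6 had 33.6, 57.4 and 40.6 CPM with the vehicle and 67.7, 64.9 and 64.7 CPM at 1 ng/mL, so that the groups did not overlap, as was the case for 4.33% of all genes. The log2 fold change of MT-ND6 was 0.60 (SE 0.116, adjusted p = 0.344 in edgeR, unadjusted p = 0.000189).

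MT-ND4L had 48.2, 64.6 and 39.3 CPM with the vehicle and 69.5, 70.5 and 74.4 CPM at 1 ng/mL, also without overlap, with a log2 fold change of 0.50 (SE 0.110, adjusted p = 0.460 in edgeR). MT-ND6 and MT-ND4L were higher at 1 ng/mL in 3 of 3 pairs, as were 13.2% of all genes. The other 5 genes were higher in 2 of 3 pairs and lower in the pair of replicate 2. MT-ND3, for example, had 58.8, 106 and 40.1 CPM with the vehicle and 107, 88.9 and 138 CPM at 1 ng/mL. Without replicate 2, all 7 genes were called, with log2 fold changes of 0.37 to 1.29. Without replicate 3, MT-ND6 was called (0.57, adjusted p = 0.00127 in edgeR), and without replicate 1 the count stayed at 0. With all pairs and no filter on low counts, 7 genes were called. Epithelial markers summed to 33.1 to 38.8 CPM in the stromal libraries at 1 ng/mL and to 33.4 to 494 CPM with the vehicle. The highest vehicle value was in replicate 2, which had the most MT-ND6 of the stromal vehicle libraries. Replicate 2 also had the highest summed level of the 7 genes there (4022 CPM against 2849 and 2406 CPM). The part of the markers in the result was not tested.

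At 10 ng/mL the stromal values lay between those of the vehicle and of 1 ng/mL. Compared with the vehicle, the log2 fold changes were 0.09 to 0.29 and 0 were called (edgeR, 1 at an unadjusted p under 0.05 beside 2.79% of all genes, 0 with DESeq2, 0% of all genes called), while MT-ND3 and ND5 were called without replicate 2. Compared with 1 ng/mL, they were -0.47 to -0.14, and 0 were called (edgeR, 7 at an unadjusted p under 0.05 beside 3.91% of all genes, 0 with DESeq2), where 0.0313% of all genes were called. MT-ND6 had 47.9, 53.0 and 50.1 CPM at 10 ng/mL, below all 3 libraries of 1 ng/mL, and its log2 fold change was -0.39 (SE 0.0651, adjusted p = 0.172 in edgeR). The groups of MT-ND6 and MT-ND4L did not overlap (3.98% of all genes), and both were lower with ND1 in 3 of 3 pairs (11.3% of all genes). MT-ND6 was called without replicate 1 and without replicate 3, and MT-ND3 without replicate 2. Of 7 epithelial markers tested between these stromal groups, 6 were above 0, 5 had an unadjusted p under 0.05 and KRT19, a keratin, was called higher at 10 ng/mL (3.62), with a median of 1.82. Their part in the result was not tested.

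**Figure D4:**
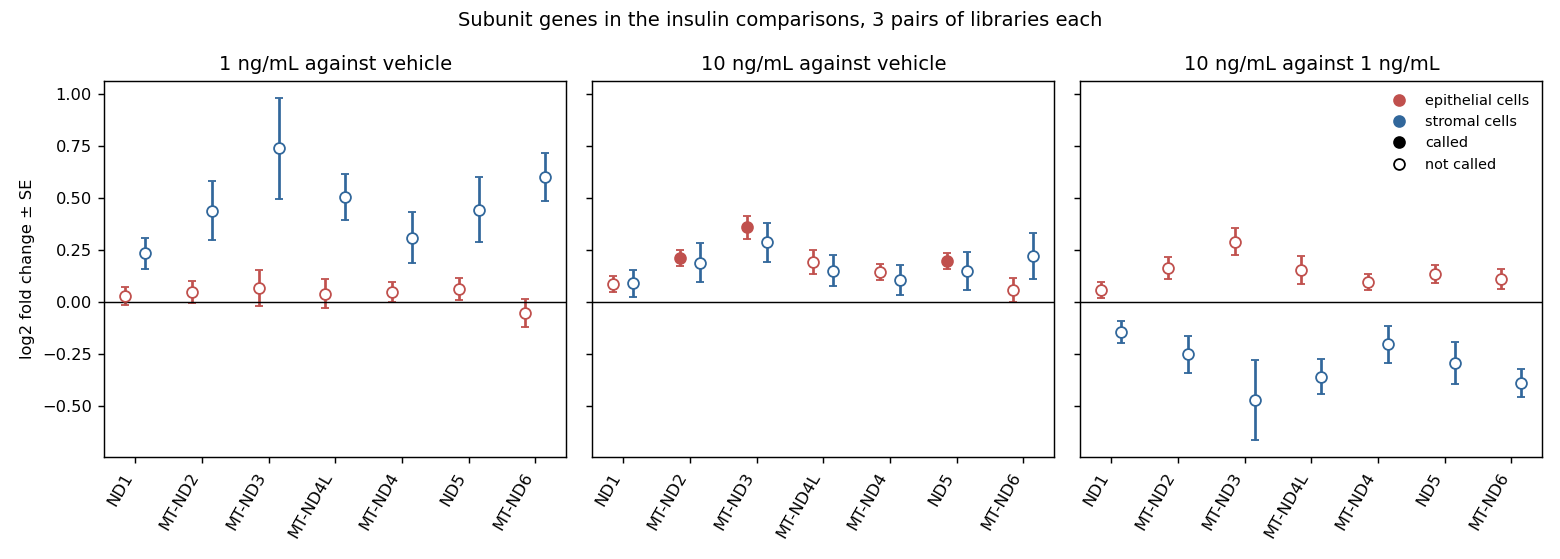
Log2 fold change with its standard error for the 7 genes in the 3 insulin comparisons, in epithelial and stromal cells, with filled points for called genes. MT-ND2, MT-ND3 and ND5 are filled in epithelial cells at 10 ng/mL against the vehicle. Between 10 and 1 ng/mL the epithelial points lie above 0 and the stromal points below it.

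The responses of the cell types were compared with interaction tests over 12 libraries each. Between 10 and 1 ng/mL, the epithelial minus stromal difference in log2 fold change was above 0 for all 7 genes, from 0.20 to 0.75, and it was called for MT-ND6 (0.49, SE 0.0813, adjusted p = 0.00764 in edgeR). This was 1 of 7 genes where 0.754% of all genes were called, and the call of MT-ND6 was lost with DESeq2, without the replicate block, without replicate 2 (adjusted p = 0.0872 in edgeR) and without replicate 3 (adjusted p = 0.0586). An unadjusted p under 0.05 was found for 7 of the 7 and for 6.83% of all genes. Epithelial markers moved too, with 23 of 29 called at a difference below 0 in this test, and their part was not tested. MT-ND4L had 0.50 (SE 0.122, adjusted p = 0.0919 in edgeR). Between 1 ng/mL and the vehicle the difference was -0.65 to -0.20 and 0 were called (edgeR, 2 at an unadjusted p under 0.05 beside 6.78% of all genes, 0 with DESeq2), where 0.658% of all genes were called. In this test 21 of 29 epithelial markers were called at a difference above 0, with a median of 3.71, and their part was not tested. Between 10 ng/mL and the vehicle it was -0.17 to 0.08 and 0 were called (edgeR, 0 at an unadjusted p under 0.05 beside 4.05% of all genes, 0 with DESeq2, 0% of all genes called).

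The spread between replicates differed among the genes and experiments. The coefficient of variation of MT-ND3 was 14.4% to 25.1% in the epithelial insulin groups, 22.3% to 49.8% in the stromal insulin groups and 52.9% to 60.3% in the stromal glucose groups. That of ND1 was 14.2% to 16.4%, 2.03% to 18.2% and 21.1% to 38.3% in the same groups. Replicate 2 had the highest levels of 6 genes in stromal cells at both glucose concentrations, with 494 CPM of MT-ND2 at 5 mM where replicates 1 and 3 had 209 and 257 CPM. For MT-ND6 in the same group, replicate 2 with 54.2 CPM was close to replicate 1 with 55.1 CPM.

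The other mitochondrially encoded mRNAs are those of the complexes III (MT-CYB), IV (COX1, MT-CO2 and COX3) and V (MT-ATP6 and MT-ATP8). Of these 6, 1 was called in epithelial cells between 10 ng/mL and the vehicle, namely MT-ATP8 with a log2 fold change of 0.42 (SE 0.0667, adjusted p = 8.3e-04 in edgeR). MT-CYB had 0.17 (adjusted p = 0.0755) and COX1, the most abundant mitochondrial mRNA by reads, had 0.01 (adjusted p = 0.994). The median of the 6 genes was 0.11 and that of the 7 complex I genes was 0.19. An unadjusted p under 0.05 in edgeR was found for 4 of the 6 and for 6 of the 7. In stromal cells between 1 ng/mL and the vehicle, 0 of the 6 were called, with values of 0.12 for COX1 to 0.97 for MT-ATP8. There 5 of the 6 had an unadjusted p under 0.05 in edgeR, beside 7 of the 7 complex I genes. Between 10 and 1 ng/mL in stromal cells, 0 of the 6 were above 0 and 0 were called. Such a p was found for 3 of the 6 there, beside 7 of the 7. MT-ATP8 overlaps MT-ATP6, and the assignment of its reads is uncertain.

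The nuclear genes of complex I did not pass the test in either of these comparisons. Of the 7 core subunits and 30 accessory subunits encoded in the nucleus, 0 were called in epithelial cells between 10 ng/mL and the vehicle (medians -0.03 and -0.01, 0 at an unadjusted p under 0.05). In stromal cells between 1 ng/mL and the vehicle, 0 were called (medians 0.02 and 0.06, with 0 and 2 at an unadjusted p under 0.05). Of the assembly factors and the factors of mitochondrial transcription and RNA processing that were tested, 0 of 18 and 0 of 28 were called in the epithelial comparison and 0 of 19 and 0 of 28 in the stromal one.

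Between the cell types, nuclear complex I genes were called in both directions. With the vehicle, 2 core subunits were higher in epithelial cells, NDUFS1 (0.53) and NDUFV2 (0.44), and 1 was lower, NDUFV1 (-0.43), all of the NADH-oxidising module. Of the 30 accessory subunits, 4 were higher, with NDUFV3 (1.01) and NDUFB5 (0.54) among them, and 6 were lower, with NDUFA5 (-1.08) and NDUFS5 (-0.89) among them. Of 19 assembly factors, 1 was higher, NDUFAF3 (0.68), and 5 were lower, with NDUFAF2 (-1.36) and NDUFAF8 (-1.06) among them. Of the 28 factors for mitochondrial DNA and RNA, 2 were higher, the polymerase gene POLG (0.96) and LRPPRC (0.80), which stabilises mitochondrial mRNAs, and 6 were lower, with MTERF3 (-0.99) and TEFM (-0.97), an elongation factor of mitochondrial transcription, among them. The 6 other mitochondrial mRNAs were called in 0 cases, with a median of -0.09 beside 0.44 for the complex I genes. In each of these lists the share called was below the 55.2% of all genes.

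**Figure D5:**
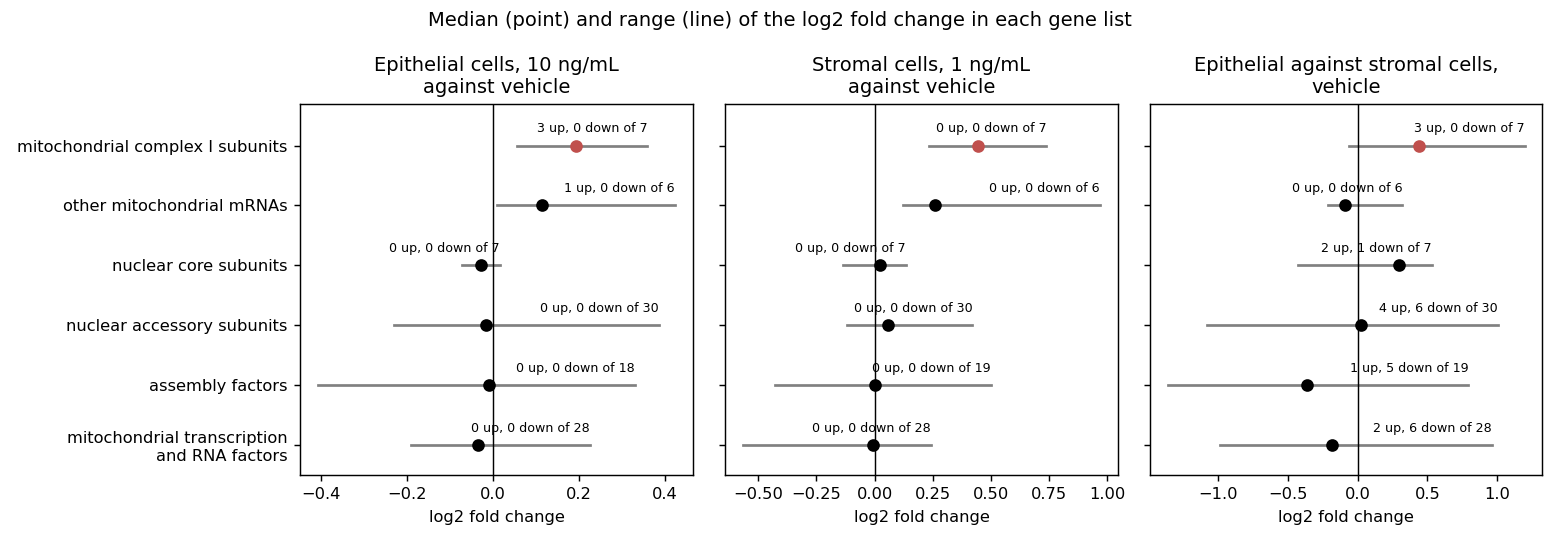
Median and range of the log2 fold change in 6 gene lists for epithelial cells at 10 ng/mL against vehicle, stromal cells at 1 ng/mL against vehicle, and epithelial against stromal cells with the vehicle, with the number of genes called higher (up) and lower (down). The complex I genes of the mitochondrial genome had medians of 0.19, 0.44 and 0.44, and 3, 0 and 3 of them were called.

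The genes whose levels followed those of the 7 subunits most closely were sought among 8929 genes with a mean of at least 10 CPM. Pearson's r was taken over 30 libraries between the log2(CPM + 1) of a gene and the mean of the 7 genes, each centred within its experiment and cell type. The highest values were those of MT-CYB (0.92), COX3 (0.92), MT-CO2 (0.92), a mitochondrial tRNA (ENSBTAG00000043575, 0.91) and the nuclear zinc transporter gene SLC30A6 (0.91). Without the low mitochondrial library, over 29 libraries and 8898 genes, they were COX3 (0.87), MT-CYB (0.86), MT-ATP8 (0.85), MT-CO2 (0.80) and the same tRNA (0.79). Of the 7 genes themselves, 6 had 0.90 to 0.98 with their mean and MT-ND6 had 0.10, which was 0.35 without this library. Each of the 7 genes is part of the mean it was compared with, so that its value is partly built in. All these genes share the libraries, and the values are a description.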

How the data were processed

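Total RNA was sequenced from stranded libraries (single-end, 75 bases). Per the labels and the methods, the authors trimmed reads with Cutadapt and fastq_quality_filter, aligned them to the Ensembl cow genome with Rsubread, kept uniquely mapped reads and counted them with featureCounts. The deposited counts are whole numbers that were not normalized. Unique mapping removes reads shared with nuclear copies of mitochondrial sequence. The deposited comparison tables hold the authors' own DESeq2 results (log2 values, p-values and scores), of which only gene names and types were used.

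Groups came from the labels, with 3 replicates each. Each of 13 comparisons used its 6 libraries, and each of 4 tests of a difference between cell types used 12. Counts were normalized with TMM, filtered with filterByExpr and tested with edgeR 4.0.16 (quasi-likelihood, replicate number as a block) in R 4.3.3, with Benjamini-Hochberg adjustment over all genes. CPM used TMM library sizes of an experiment. The block follows the paired design in the study's methods: deviations of same-numbered libraries correlated at 0.18 to 0.83 in the 24 pairs of dose comparisons and at 0.04 to 0.51 in the 15 pairs between cell types (11 above 0.1). The labels do not tie replicate numbers to animals in the sources used here. The p-values of fits with the block weigh a change against the variation left in these samples after the block. No files of replicates were identical.

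The members and gene lists were chosen with earlier results of these data known. Every member was named, and from each list up to 4 called genes with the smallest p were named, with all mitochondrially encoded mRNAs. The 5 genes most like the mean of the members were named. Other settings were DESeq2 1.42.0, its size factors, no filter on low counts, no block, library sizes from nuclear genes, all 9 libraries of a cell type in one fit, and leaving out each replicate. The fit was tested on simulated data with known changes. At a log2 change of 1 it recovered 61 of 65 genes for epithelial cells at 10 ng/mL against vehicle. For stromal cells at 1 ng/mL against vehicle it recovered 58 of 66. It recovered 10 of 66 for glucose in epithelial cells and 10 of 66 between the cell types with the vehicle. For the interaction of 10 ng/mL against vehicle it was 38 of 64. At 0.5 these were 44 of 66, 44 of 66, 0 of 65, 0 of 65 and 12 of 65. Unchanged genes that were called numbered 8, 6, 3, 9 and 2 in the same order. The simulation held no replicate effect. It also changed far fewer genes than the 7392 called between the cell types with the vehicle, so that its recovery there does not carry over to the data. Gene symbols came from the deposited tables. Gene lengths were not used here.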

Additional observations from a re-analysis of the deposited data

Results flagged for a closer look

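The change of MT-ND6 between 10 and 1 ng/mL of insulin was called as different between the cell types. The same tests for 1 and for 10 ng/mL against the vehicle called 0 of the 7 genes. Between 10 and 1 ng/mL, the epithelial log2 fold change was 0.11 (SE 0.0478) and the stromal one was -0.39 (SE 0.0651), and the test of the difference gave 0.49 (SE 0.0813, adjusted p = 0.00764, edgeR's interaction test over 12 libraries). It was higher at 10 ng/mL in 3 of 3 epithelial pairs and lower in 3 of 3 stromal pairs. The call was lost with DESeq2 (adjusted p = 0.177), without the replicate block (adjusted p of 1), without replicate 2 (adjusted p = 0.0872) and without replicate 3 (adjusted p = 0.0586), and the difference was 0.46 to 0.53 over the 8 alternatives. In the same test, 23 of 29 epithelial markers were called with a difference below 0, with stromal libraries at 1 ng/mL at 33.1 to 38.8 CPM of these markers and at 10 ng/mL at 31.7 to 404 CPM, the highest in replicate 1. Their part in the MT-ND6 value was not tested.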

How the results depend on the processing

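Of 952 fold changes over 119 results and their alternatives, 834 kept direction and side of the threshold, 33 lost a call, 51 gained one and 34 changed sign. Fold changes from the fit of all 9 libraries of a cell type were not among these 952. With no filter on low counts, 2 of the 7 genes were called between 10 and 1 ng/mL in epithelial cells, and in stromal cells 7 between 1 ng/mL and vehicle and 5 between 10 and 1 ng/mL. In the interaction tests it called 5 for 1 ng/mL against vehicle and 6 for 10 against 1 ng/mL. DESeq2 called 0 for 10 ng/mL against vehicle in epithelial cells and 0 for the interaction of 10 against 1 ng/mL, and the fit of all 9 epithelial libraries called 0 for 10 ng/mL against vehicle. Over all genes, DESeq2 called 174 for glucose in stromal cells and 241 for the glucose interaction, where edgeR called 0 and 0. The cause of these changes was not tested.

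Without the replicate block, 0 genes were called for 10 ng/mL against vehicle in epithelial cells (3 with it), 0 for the cell types at 50 mM glucose (1 with it) and 0 for the interaction of 10 against 1 ng/mL (1 with it). Of all genes, the fit without the block called 0 in the epithelial comparison of 10 ng/mL with the vehicle, where the block gave 16.

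Leaving out each replicate in turn gave 0 to 3 called genes for 10 ng/mL against vehicle and for 10 against 1 ng/mL in epithelial cells. In stromal cells it gave 0 to 7 for 1 ng/mL against vehicle, 0 to 2 for 10 ng/mL against vehicle and 1 to 1 for 10 against 1 ng/mL. Between the cell types it gave 1 to 4 at 5 mM, 0 to 1 at 50 mM, 1 to 4 with the vehicle and 1 to 1 at 10 ng/mL. The interaction tests gave 0 to 1 both for 1 ng/mL against vehicle and for 10 against 1 ng/mL. The 0 at 50 mM came without replicate 1 and without replicate 2.

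Log2 fold changes that changed sign when 1 replicate was left out had these ranges. For epithelial cells at 1 ng/mL against vehicle they were -0.012 to 0.065 (ND1), -0.059 to 0.13 (MT-ND2), -0.16 to 0.21 (MT-ND3), -0.044 to 0.14 (MT-ND4L), -0.037 to 0.092 (MT-ND4), -0.048 to 0.14 (ND5) and -0.15 to 0.10 (MT-ND6). MT-ND6 had -0.013 to 0.20 at 10 ng/mL against vehicle and -0.20 to 0.17 for glucose in epithelial cells. For glucose in stromal cells, ND1 had -0.20 to 0.14 and MT-ND2 -0.14 to 0.18. Between the cell types at 5 mM, ND1 had -2.79 to 0.20 and MT-ND2 -1.56 to 0.19. At 50 mM, MT-ND3 had -0.15 to 0.37, MT-ND4L -0.042 to 0.18 and MT-ND4 -0.089 to 0.0047. With the vehicle, MT-ND4L had -0.17 to 0.039 and MT-ND4 -0.19 to 0.016. At 1 ng/mL, MT-ND2 had -0.015 to 0.25 and ND5 -0.23 to 0.014. At 10 ng/mL, MT-ND4L had -0.077 to 0.035, with 0.0037 by DESeq2 and 0.0038 by its size factors in edgeR, and MT-ND4 had -0.13 to 0.048. In the interaction of 10 ng/mL against vehicle, ND1 had -0.10 to 0.040 (0.0042 without the replicate block), MT-ND2 -0.092 to 0.16, MT-ND4L -0.015 to 0.12, MT-ND4 -0.044 to 0.097 and ND5 -0.078 to 0.11.

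With library sizes from nuclear genes only, an alternative chosen after seeing the data, the summed level of the 7 genes was 4497, 4638 and 4980 CPM in the epithelial insulin groups with the vehicle, 1 and 10 ng/mL, and 3632, 4583 and 3915 CPM in the stromal groups at the same doses. In the glucose experiment it was 2123 and 3595 CPM in epithelial and 3792 and 3290 CPM in stromal cells at 5 and 50 mM. The lowest count of a member was 312 in 29 libraries, which carries a counting error of 5.66%, and 94 (MT-ND3) and 103 (MT-ND4L) in the library with few mitochondrial reads, where that error is larger.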
